A study of Mus musculus with 9 samples.

Results

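The joint difference of a toxin and a diet from untreated mice was examined in the substantia nigra pars compacta, the midbrain nucleus that holds the dopamine neurons lost in Parkinson's disease. Bulk RNA sequencing was done on 9 libraries in 3 groups of 3. The 6 libraries described here were 3 labelled Ctrl and 3 labelled MPTP + MCT-KD, from mice given MPTP and a medium-chain triglyceride ketogenic diet. The 3 libraries labelled MPTP, from mice given the toxin without that diet, served for comparison, and both treated groups were set against the same Ctrl libraries. The sources used here give neither the strain, sex and age of the mice nor the doses and the length of the diet, and do not state that each library came from 1 mouse, so p-values measure the spread between libraries. No untreated mice on the diet were analysed here, so what the toxin and what the diet adds to the difference from Ctrl cannot be told apart. The genes described were the 13810 of 27339 in the table that had an Ensembl identifier and a mean of at least 0.5 FPKM (fragments per kilobase of transcript and per M mapped fragments, M being mega) over the 9 libraries. A further 8226 genes with an Ensembl identifier were below that level.

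MPTP is converted by monoamine oxidase B, largely in astrocytes, to a cation that the dopamine transporter carries into dopamine neurons, where it inhibits complex I of the respiratory chain. Medium-chain triglycerides are readily turned into ketone bodies in the liver, which neurons and glia can oxidise in place of glucose. Cells adjust cholesterol and fatty acid synthesis through the SREBP transcription factors, and oligodendrocytes and astrocytes make most of the cholesterol of the brain, which does not take it up from blood.

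Values are given as CPM (counts per M counts of the library) in libraries 1, 2 and 3 of a group, and differences as the log2 fold change fitted by edgeR, with negative values for a level below Ctrl. Libraries held 33.2 M to 40 M counts, with 34.7 ± 0.844 M (SD, n = 3) in the MPTP plus diet group and 37.7 ± 2.88 M (SD, n = 3) in Ctrl, and 6.14% to 7.06% of counts were from mitochondrial genes. Ctrl library 3 stood apart by genes of neighbouring structures. Its level of Ttr, the transthyretin of the choroid plexus, was 1064 CPM (6.57, 4.89 and 1064 CPM in the 3 Ctrl libraries and 69.4, 10.5 and 2.17 CPM with MPTP plus diet). It also held Tph1, the tryptophan hydroxylase of the pineal gland, at 0, 1.48 and 48.8 CPM in the Ctrl libraries against 0, 0.658 and 0.313 CPM with MPTP plus diet. In the treated group, library 1 was low in Tph2, the tryptophan hydroxylase of raphe serotonin neurons (14, 102 and 75.2 CPM, with 26.6, 52.2 and 87 CPM in Ctrl). Libraries 2 and 3 were high in markers of forebrain excitatory neurons, with a mean log2 level over 9 markers of 0.056, 0.72 and 1.05 relative to the Ctrl mean. Counts and medians that lead a paragraph were therefore also computed without Ctrl 3, without MPTP plus diet library 1 and without both. Th, which makes the dopamine precursor and defines the sampled neurons, was present in every library at 48.1 to 108 CPM.

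Between MPTP plus diet and Ctrl, most of the nigral transcriptome differed by little. Of the 13810 genes, 13367 (96.8%) lay within 0.5 log2 of Ctrl, and the 5th and 95th percentiles of the log2 fold change were -0.30 and 0.25. At an adjusted p under 0.05, edgeR called 0 genes higher and 0 lower (0% and 0% of the genes tested). At an unadjusted p under 0.05 there were 456 higher (3.3%) and 487 lower (3.53%), and the 3 libraries of each group did not overlap for 855 genes higher (6.19%) and 921 lower (6.67%). The median log2 fold change was -0.0021, with 49.2% of genes above Ctrl and 50.8% below. The gene of smallest p was Vegfa, at an adjusted p of 0.0823. DESeq2 called 14 rows on the same counts, 8 higher and 6 lower, while limma on log2(FPKM + 0.1) and on log2(FPKM + 1) called 0 and 0. The number of calls was 4 when MPTP library 3 was left out, 1 when MPTP library 2 or MPTP plus diet library 1 was left out, and 0 when any of the other libraries was left out. Beside it, over all 14949 rows tested, edgeR called 2 genes for MPTP against Ctrl and 0 for MPTP plus diet against MPTP, where the smallest adjusted p was 0.469. Of the 14949 rows, 1163 had an unadjusted p under 0.05 for MPTP plus diet against MPTP, beside 503 higher and 503 lower for MPTP plus diet against Ctrl. The values below are therefore descriptions of levels, and a difference is said to hold only where an adjusted p under 0.05 is given with it. Of the 42 gene lists drawn up, the median log2 fold change of 20 changed sign when 1 of the 9 libraries was left out, and that of 22 kept its sign.

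The lowest p belonged to Vegfa, the growth factor that drives the sprouting and permeability of blood vessels and is itself a target of the hypoxia-inducible factors (ENSMUSG00000023951, GRCm38 chromosome 17, 46016993 to 46032369). Vegfa was at 84.5, 90.5 and 89 CPM in the Ctrl libraries, at 68.2, 70.5 and 77.4 CPM with MPTP and at 66.6, 65.1 and 65.3 CPM with MPTP plus diet. All libraries with MPTP plus diet were below all with MPTP, and these below all Ctrl libraries. The mean with MPTP plus diet, 65.7 ± 0.772 CPM (SD, n = 3), was 25.4% below Ctrl in the fit, a log2 fold change of -0.42 (adjusted p = 0.0823, SE 0.058). Against MPTP the log2 difference was -0.13 (unadjusted p = 0.0396, adjusted p = 0.63), and MPTP against Ctrl gave -0.29 (adjusted p = 0.349). When each library was left out in turn, the log2 fold change of Vegfa stayed between -0.45 and -0.40 while its adjusted p ranged from 0.012 to 0.817, and it was called by DESeq2 (adjusted p = 1.57e-06).

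The hypoxia response list, Vegfa included, had members on both sides of Ctrl. Of the 17 tested, 7 were above Ctrl and 10 below, the median of the log2 fold changes being -0.022 beside -0.0021 over all genes, and 4, which were Vegfa, Ldha, P4ha1 and P4ha2, did not overlap with Ctrl on the low side (6.67% of all genes). The median was -0.057 without Ctrl 3 and -0.0095 without MPTP plus diet library 1, and it ranged over -0.058 to 0.026 when each library was left out in turn. Ldha, the lactate dehydrogenase subunit that favours the making of lactate from pyruvate, was at 159, 149.6 and 161 CPM in Ctrl and 138, 132 and 132 CPM with MPTP plus diet, 14.3% below (log2 fold change -0.22, adjusted p = 0.74, SE 0.054). Its groups did not overlap, and the MPTP libraries at 137, 144 and 153 CPM lay across the gap. P4ha2 and P4ha1, catalytic subunits of the collagen prolyl hydroxylase, gave log2 fold changes of -0.44 (unadjusted p = 0.00384) and -0.14 (unadjusted p = 0.045).

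Among the genes lower with MPTP plus diet, several of the smallest p-values belonged to genes that lie over another gene, and since no strand setting is given, reads of the partners cannot be separated. Mrps34, a subunit of the small mitochondrial ribosome, was at 44.4, 40.5 and 48.1 CPM in Ctrl, 36.3, 27 and 39.8 CPM with MPTP and 24.2, 25.3 and 26.7 CPM with MPTP plus diet (log2 fold change -0.80, adjusted p = 0.242, SE 0.12). The groups of Mrps34 with and without treatment did not overlap, but it overlaps Nme3 and Mapk8ip3, and the transcript length implied by its counts and FPKM differed 1.43-fold between libraries. Utp14b, a nucleolar protein of ribosomal RNA processing that lies within Acsl3, was at 24.5, 23.9 and 23.5 CPM in Ctrl and 15.9, 16 and 19.3 CPM with MPTP plus diet (log2 fold change -0.49, adjusted p = 0.5, SE 0.095). Atg9b, a membrane protein of autophagosome formation whose gene is antisense to Nos3, was at 12.3, 13.5 and 15 CPM in Ctrl and 8.82, 9.18 and 9.03 CPM with MPTP plus diet (log2 fold change -0.59, adjusted p = 0.562, SE 0.12). The MPTP libraries of Atg9b, at 12.8, 11.3 and 13.7 CPM, lay within or near the Ctrl range. Pcdhgb7, a clustered protocadherin of neuronal cell surfaces that shares exons with its cluster, gave -0.51, Abca7, a lipid transporter, -0.29, and Usp11, a deubiquitinase, -0.26, all at an adjusted p of 0.74. Lrrc24 and Gtpbp6, at -0.37 and -0.35 with the same adjusted p, were also among the 15 of smallest p, as were Fdps, Fasn, Hspa1b and Chrna6, which are described below with their pathways.

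Among the genes higher with MPTP plus diet, Olfm1, a secreted glycoprotein abundant in neurons, had the smallest p. It was at 309.9, 311 and 289 CPM in Ctrl, 326, 319.5 and 301 CPM with MPTP and 359, 361 and 365 CPM with MPTP plus diet, 19.2% above Ctrl (log2 fold change 0.25, adjusted p = 0.5, SE 0.047), and the treated libraries lay above every other library. Rnf141, which overlaps Ampd3, was at 83.9, 81.7 and 83.8 CPM in Ctrl and 102, 101 and 100 CPM with MPTP plus diet (log2 fold change 0.28, adjusted p = 0.5, SE 0.054), also above every MPTP library. Rnf26, an ubiquitin ligase of the endoplasmic reticulum membrane that overlaps Mfrp and C1qtnf5, was at 25.4, 22.5 and 24.4 CPM in Ctrl, 39.6, 29.3 and 28.9 CPM with MPTP and 40.4, 33.4 and 35.8 CPM with MPTP plus diet (log2 fold change 0.60, adjusted p = 0.562, SE 0.12). Sumo2, a small ubiquitin-like modifier, was at 28.6, 28.5 and 28.6 CPM in Ctrl against 49.7, 53.6 and 41.6 CPM with MPTP plus diet (log2 fold change 0.76, adjusted p = 0.74, SE 0.17), and the MPTP libraries were spread over 32.6, 28.8 and 47.2 CPM, above every Ctrl library and overlapping the MPTP plus diet group.

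The other genes of smallest p in this direction had log2 fold changes of 0.21 to 0.49, each with an adjusted p of 0.74. They included Trak2, an adaptor that links mitochondria to kinesin motors (0.29), Gpm6b, a membrane protein related to the myelin proteolipid protein (0.21), and Fzd6, a Wnt receptor (0.45, with 0.51 for MPTP against Ctrl). P2ry12, the ADP receptor of resting microglia, gave 0.41, Prr5l, a partner of the kinase complex mTORC2, 0.33, and Golga7, a partner of a palmitoyltransferase, 0.22. The cytoskeletal pseudokinase Peak1 gave 0.39, the transposase-derived gene Pgbd5 0.25, the transcriptional repressor Zbtb18 0.30, the cyclic nucleotide phosphodiesterase Pde10a 0.27 and Wipf3 0.49. In all 15 the 3 treated libraries were above the 3 Ctrl libraries (6.19% of all genes). This is no separate result, since the 15 were chosen by p in the same libraries.

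**Figure D1:**
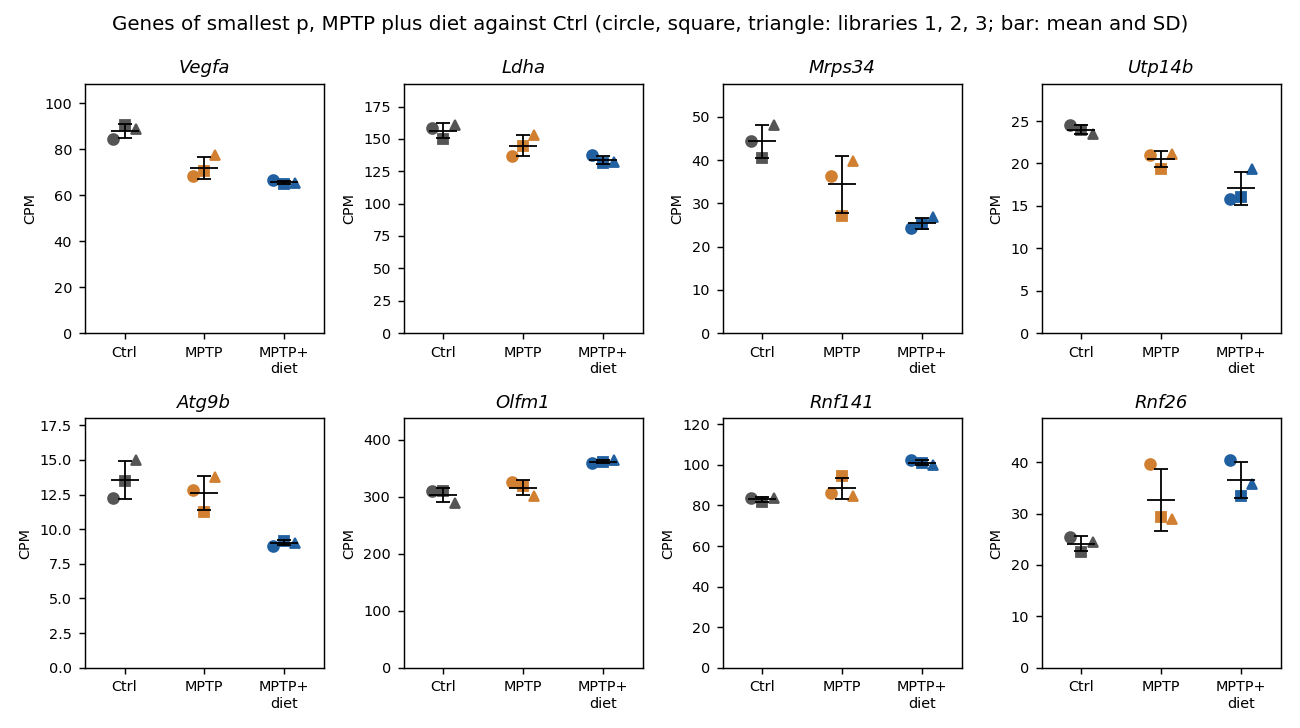
CPM in each library for 8 of the 30 genes of smallest p in the comparison of MPTP plus diet with Ctrl, by group on the horizontal axis, with linear vertical axes that start at 0, circle, square and triangle for libraries 1, 2 and 3, and bars for the mean and SD (n = 3). The MPTP plus diet libraries of Vegfa sit at 65.1 to 66.6 CPM below Ctrl libraries at 84.5 to 90.5 CPM, and those of Olfm1 at 359 to 365 CPM above Ctrl libraries at 289 to 311 CPM.

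Genes of cholesterol synthesis and uptake were the list with the most members separated from Ctrl on the low side. Of 21 tested, 19 were below Ctrl (50.8% of all genes), 11 did not overlap with Ctrl on the low side (6.67% of all genes) and 9 had an unadjusted p under 0.05 (3.53%), while none passed the adjusted threshold. Their median log2 fold change was -0.13 beside -0.0021 over all genes, and the 2 members above Ctrl were Sc5d and Hsd17b7, both sterol pathway enzymes, at 0.02 and 0.07. The median was -0.14 without Ctrl 3, -0.12 without MPTP plus diet library 1 and -0.12 without both. For MPTP against Ctrl, the median of the same genes was -0.036, with 16 below, and for MPTP plus diet against MPTP it was -0.10. The mean log2 level of the list relative to the Ctrl mean was 0.027, -0.021 and -0.0053 in the Ctrl libraries, -0.13, 0.0014 and -0.00083 with MPTP and -0.17, -0.053 and -0.19 with MPTP plus diet, so MPTP library 1 lay with the MPTP plus diet libraries and the other two with Ctrl.

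Within the list, Hmgcs1, which makes the hydroxymethylglutaryl-CoA of the mevalonate pathway, was at 276, 284 and 281 CPM in Ctrl and 262, 274 and 254 CPM with MPTP plus diet (log2 fold change -0.089, adjusted p = 0.786, SE 0.051), without overlap but with a small gap. Fdps, the farnesyl diphosphate synthase that supplies sterol and isoprenoid branches, was at 55.1, 49.6 and 49.9 CPM in Ctrl and 42.1, 44.5 and 40 CPM with MPTP plus diet (-0.29, unadjusted p = 0.00139). For Fdps the MPTP libraries, at 41.4, 45.6 and 45.9 CPM, were also below every Ctrl library, with a log2 fold change of -0.22.

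Fdft1, the squalene synthase that commits carbon to sterols, was at 108, 108 and 104 CPM in Ctrl, 102, 104 and 109 CPM with MPTP and 94.5, 98.9 and 86 CPM with MPTP plus diet (-0.20, unadjusted p = 0.00519), and Sqle, the squalene epoxidase of the following step, gave -0.22 (unadjusted p = 0.015). In both of these genes the treated libraries lay below all Ctrl libraries. Aacs, a member of the ketone body list and not of the cholesterol list, activates acetoacetate in the cytosol so that it can enter lipid synthesis. It gave -0.24 (unadjusted p = 0.0141), with overlapping libraries.

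Genes of fatty acid synthesis and desaturation were less uniform. Of 17 tested, 6 were above and 11 below Ctrl, the log2 median being -0.039, and 5 did not overlap with Ctrl on the low side (6.67% of all genes). Without Ctrl 3, as without MPTP plus diet library 1, 9 were below and 8 above, and without both the median was 0.017 with 9 above. Fasn, the fatty acid synthase, was at 389, 395 and 398 CPM in Ctrl, 382, 409 and 414 CPM with MPTP and 334, 345 and 348 CPM with MPTP plus diet, 13.1% below Ctrl (log2 fold change -0.20, adjusted p = 0.706, SE 0.044). All 3 treated libraries of Fasn were below the 6 others, and against MPTP the log2 difference was -0.23 (unadjusted p = 0.000154, adjusted p = 0.469). Acly, which makes cytosolic acetyl-CoA from citrate, gave -0.21 (unadjusted p = 0.0145), and Acaca, the acetyl-CoA carboxylase that makes the malonyl-CoA used by Fasn, -0.12 (unadjusted p = 0.0453), both without overlap. Scd1, a desaturase that makes monounsaturated fatty acids, went the other way at 0.13 (unadjusted p = 0.0317). Markers of myelinating cells, which express many lipid synthesis genes, were above Ctrl in the same libraries (median log2 fold change 0.24, given below), and the part of cell composition in the lipid genes was not tested.

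Promoters of 2 of these genes, from RefSeq on GRCm38.p6, are shown because both genes were among those separated from Ctrl and both carry motifs known in this pathway. Each is the 250 bases before the annotated start, given 5′ to 3′ on the gene's strand, at chr13:119690101-119690350 on the plus strand for Hmgcs1 and chr11:120824548-120824797 on the minus strand for Fasn. Capitals mark every match on either strand to CCAAT, the box bound by NF-Y, a partner of SREBP, and in Hmgcs1 also to TCACNCCAC, a form of the sterol regulatory element, where N is any base.
Hmgcs1: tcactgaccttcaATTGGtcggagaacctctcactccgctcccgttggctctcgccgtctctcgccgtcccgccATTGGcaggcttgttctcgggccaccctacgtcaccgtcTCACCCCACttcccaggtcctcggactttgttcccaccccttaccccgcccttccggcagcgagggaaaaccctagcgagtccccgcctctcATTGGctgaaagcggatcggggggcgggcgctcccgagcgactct
Fasn: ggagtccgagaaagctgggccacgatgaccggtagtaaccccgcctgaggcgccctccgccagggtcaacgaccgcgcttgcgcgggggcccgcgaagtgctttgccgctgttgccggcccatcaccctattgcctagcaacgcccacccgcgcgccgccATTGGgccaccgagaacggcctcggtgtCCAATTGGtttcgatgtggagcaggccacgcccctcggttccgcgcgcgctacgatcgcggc

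The Hmgcs1 window held 3 CCAAT matches and 1 TCACNCCAC match. The Fasn window held 0 TCACNCCAC matches and 3 CCAAT matches, of which 2 overlap on opposite strands in CCAATTGG. Promoter windows were on hand for 14 of the 21 cholesterol genes, and 13 of those (92.9%) held CCAAT, against 40.4% of the 10760 tested genes with a window. For fatty acid synthesis it was 9 of 14 (64.3%). TCACNCCAC was found in 1 of the 14 cholesterol promoters, that of Hmgcs1, in 0 of the 14 fatty acid promoters and in 1.17% of all tested genes with a window. The 2 windows shown were chosen for holding motifs, so their matches are no separate result. A match describes the letters of this window and not a bound site.

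**Figure D2:**
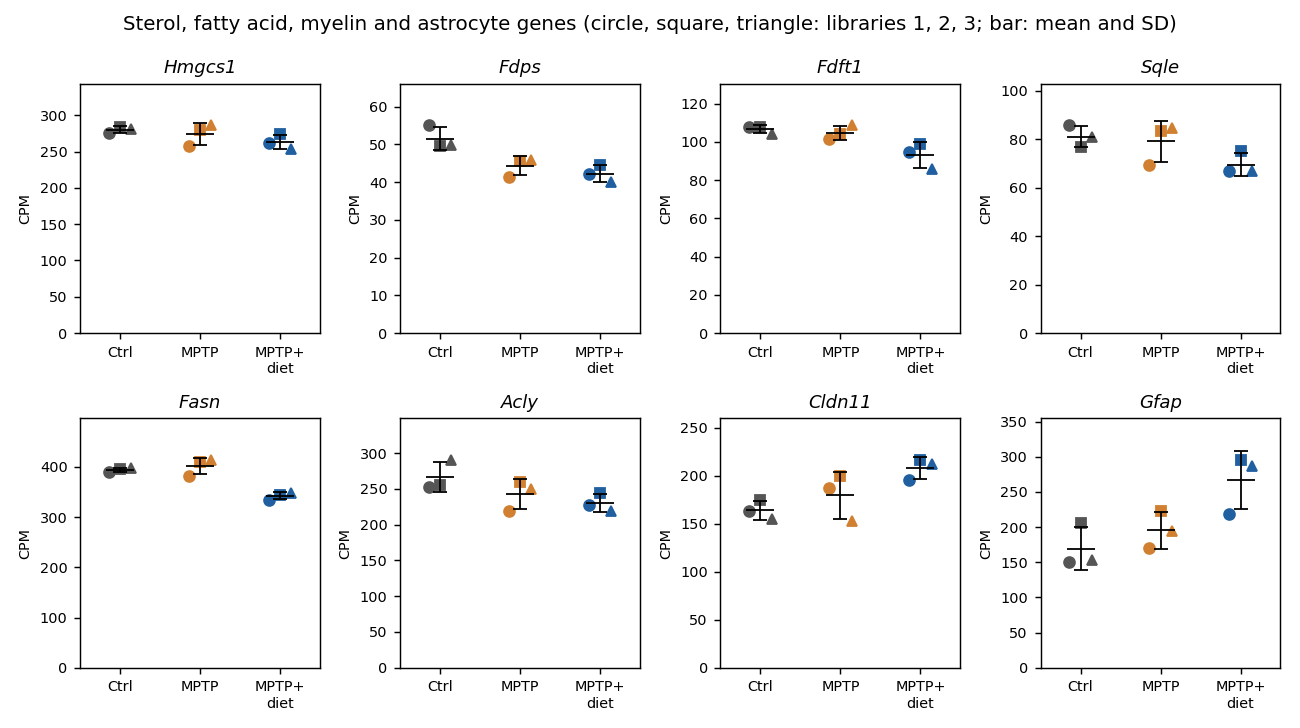
CPM in each library for 6 genes of lipid synthesis and for the glial genes Cldn11 and Gfap, by group, with linear vertical axes that start at 0, circle, square and triangle for libraries 1, 2 and 3, and bars for the mean and SD (n = 3). Fasn lies at 334 to 348 CPM with MPTP plus diet, below the libraries of both other groups, while Gfap reaches 219 to 295 CPM above Ctrl libraries at 151 to 205 CPM.

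Dopamine neuron genes were mostly below Ctrl in the MPTP plus diet libraries, and in the MPTP libraries too. In bulk tissue, fewer dopamine neurons and less RNA of these genes per neuron cannot be told apart. Markers of neighbouring tissue also differed between libraries, as given below, and the part of the sampled tissue in the dopamine neuron genes was not tested. Of 20 identity genes, 19 were below Ctrl and 1 above, the median of the log2 fold changes being -0.29 (-0.35 for MPTP against Ctrl, and 0.027 for MPTP plus diet against MPTP) beside -0.0021 over all genes. Of these 20, 5 had an unadjusted p under 0.05 (3.53% of all genes) and 3 did not overlap with Ctrl (6.67%), all lower. The median was -0.22 with 16 below without Ctrl 3, and -0.23 with 17 below without MPTP plus diet library 1. Without both it was -0.23 with 16 below. The mean log2 level of the list relative to the Ctrl mean was 0.066, -0.092 and 0.026 in the Ctrl libraries, -0.73, -0.14 and -0.28 with MPTP and -0.23, -0.29 and -0.27 with MPTP plus diet, so the 3 MPTP plus diet libraries lay close together and inside the wide MPTP range.

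Th, the tyrosine hydroxylase that limits dopamine synthesis, was at 108, 83.7 and 69 CPM in Ctrl, 55.3, 63.8 and 68 CPM with MPTP and 78.2, 59.3 and 48.1 CPM with MPTP plus diet. The groups overlapped, with a log2 fold change of -0.49 (adjusted p = 0.753, SE 0.23) against Ctrl and -0.011 against MPTP (unadjusted p = 0.961). Slc6a3, the dopamine transporter through which the toxin enters, was at 182, 158 and 129 CPM in Ctrl, 126, 116 and 93.1 CPM with MPTP and 144, 97.8 and 86.2 CPM with MPTP plus diet (log2 fold change -0.52, adjusted p = 0.753, SE 0.23), again with overlap and with -0.034 against MPTP. Both genes were highest in library 1 of the treated group, as was the case in Ctrl. Ddc, which makes dopamine from its precursor, gave -0.35 and Slc18a2, the vesicular monoamine transporter that also sequesters the toxin, -0.19, both with overlapping libraries (adjusted p = 0.753 and 0.889). Over the 13 genes of dopamine synthesis, storage, reuptake and breakdown the median was -0.17, with 10 below, and -0.056 without Ctrl 3 and MPTP plus diet library 1.

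Of the genes of these neurons, 3 of the 20 of the identity list and 2 of the 13 of the synthesis and breakdown list did not overlap with Ctrl, all on the low side (6.67% of all genes). Chrna6, the nicotinic receptor subunit typical of dopamine neurons, was at 29.6, 30.1 and 22.4 CPM in Ctrl, 19.5, 19.3 and 17.5 CPM with MPTP and 21.7, 15.3 and 20.1 CPM with MPTP plus diet (log2 fold change -0.52, adjusted p = 0.74, SE 0.14). Both treated groups of Chrna6 lay below all Ctrl libraries, and its partner Chrnb3 gave -0.55 with overlap. Slc10a4, a vesicular transporter of monoamine and cholinergic neurons, gave -0.45 and Nr4a2, the nuclear receptor that maintains dopamine neuron identity, -0.38, each without overlap (unadjusted p = 0.0069 and 0.00776). Drd2, the autoreceptor, gave -0.26 and Maoa, a monoamine oxidase, -0.17, also without overlap (unadjusted p = 0.0197 and 0.013). Ret, the receptor through which GDNF acts on these neurons, gave -0.28 (unadjusted p = 0.03).

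Markers of mature oligodendrocytes were above Ctrl without exception. All 17 tested were above (49.2% of all genes), at a log2 median of 0.24 beside -0.0021, 9 had an unadjusted p under 0.05 (3.3%) and 8 did not overlap with Ctrl (6.19%). Cldn11, the tight junction protein of myelin, was at 163, 174 and 155 CPM in Ctrl, 187, 199.9 and 153 CPM with MPTP and 195, 216 and 212 CPM with MPTP plus diet (log2 fold change 0.34, adjusted p = 0.74, SE 0.090). Cnp, a phosphodiesterase of non-compact myelin whose gene overlaps Dnajc7, was at 422, 493 and 423 CPM in Ctrl and 511, 548 and 528 CPM with MPTP plus diet (0.25, unadjusted p = 0.00384). Mobp and Mbp, structural proteins of compact myelin, gave 0.32 and 0.26, and Mal, a proteolipid of myelin membranes, 0.24. For MPTP against Ctrl, the median of the list was 0.18, and for MPTP plus diet against MPTP it was 0.053. The mean log2 level of the list differed among Ctrl libraries too, at -0.10, 0.15 and -0.052, against 0.16, 0.30 and 0.23 with MPTP plus diet. The median was 0.21 without Ctrl 3 and 0.26 without MPTP plus diet library 1. Of 12 precursor genes 7 were above and 5 below, with a median of 0.054, and Olig1, a lineage transcription factor, gave 0.21 (unadjusted p = 0.0169).

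Of 16 homeostatic microglia markers 13 were above Ctrl and 3 below, with a median of 0.17 (0.14 for MPTP against Ctrl), and 5 did not overlap with Ctrl on the high side (6.19% of all genes). The median was 0.17 without Ctrl 3 and 0.20 without MPTP plus diet library 1. Beside P2ry12, Fcrls, a scavenger receptor of resident microglia, gave 0.30, and Csf1r, the receptor on which microglia depend for survival, gave 0.17, with unadjusted p-values of 0.0193 and 0.0291. Aif1, the common histological marker of microglia, was at -0.21 with an adjusted p of 0.93. The 11 disease-associated microglia genes had a median of 0.079, with 7 above and 4 below.

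Gfap, the intermediate filament of astrocytes that is used as a sign of their reaction, was at 151, 205 and 153 CPM in Ctrl, 169.9, 223 and 195 CPM with MPTP and 219, 295 and 286 CPM with MPTP plus diet. The treated libraries were above all Ctrl libraries, 57.5% higher in the fit (log2 fold change 0.66, adjusted p = 0.74, SE 0.18), and library 2 was the highest in each group. The log2 difference from MPTP was 0.45 (unadjusted p = 0.0377, adjusted p = 0.63). The rest of the reactive list was not uniformly higher. Of 20 tested, 8 were above and 12 below, with a median of -0.041. Without MPTP plus diet library 1 the list turned to 12 above and 8 below, with a median of 0.064. Serpina3n, a secreted protease inhibitor often raised in reactive astrocytes, gave -0.32 and S1pr3, a sphingosine phosphate receptor, -0.29 (unadjusted p = 0.0263 and 0.0282). Among homeostatic astrocyte genes 13 of 16 were above Ctrl, with a median of 0.041. Aqp4, the water channel of astrocyte endfeet, gave 0.22, S100b, a calcium-binding protein, 0.23 and Slc1a2, the main glutamate transporter, 0.12.

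Of 23 listed genes of NF-κB and cytokine signalling, 10 reached the minimum of 0.5 FPKM, and these had a median of 0.088, with 7 above and 3 below. The interferon response genes, 17 tested, had a median of 0.00092, and the 15 complement and antigen presentation genes one of 0.00035. When each library was left out in turn these ranged over -0.052 to 0.095 and -0.062 to 0.045. Within the last list C4b, a complement component made by glia, gave 0.40 without overlap (unadjusted p = 0.00702), while H2-D1, a class I histocompatibility gene, gave -0.17 (unadjusted p = 0.0456). Of 16 brain endothelial genes 11 were above Ctrl, and Ly6a, a surface protein of brain endothelium, gave 0.39 (unadjusted p = 0.0056).

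Markers of neighbouring tissue differed widely between libraries. Slc17a7, the vesicular glutamate transporter of cortex, hippocampus and part of the thalamus, was at 85.8, 89.9 and 65.6 CPM in Ctrl, 129, 97.3 and 87.5 CPM with MPTP and 124, 211 and 162 CPM with MPTP plus diet (log2 fold change 1.04, adjusted p = 0.74, SE 0.25). Its Ctrl and MPTP plus diet libraries did not overlap, while the MPTP libraries overlapped both. Kcnh3, a potassium channel of forebrain neurons named after its value was seen, gave 1.40. All 9 tested of 13 forebrain excitatory markers, a list also drawn up after the values were seen, were above Ctrl with a median of 0.56, or 0.88 without MPTP plus diet library 1. Thalamic markers had a median of 0.37 (8 of 10 above), which was 0.11 without MPTP plus diet library 1. Choroid plexus markers had a median of -1.51, which became 0.025 without Ctrl 3. The 13 meningeal fibroblast genes stood at a mean log2 level of 0.48, -0.023 and -0.46 in Ctrl and -1.23, 0.34 and 0.64 with MPTP plus diet, and Ptgds, a prostaglandin synthase strong in meninges, was at 1085, 787 and 355 CPM and 376, 1007 and 1032 CPM. The part of the sampled tissue in Olfm1, Gfap and other genes shared with the forebrain was not tested. GABA neuron markers had a median of -0.017, serotonin neuron genes one of 0.13, smooth muscle and pericyte genes 0.0098 and red blood cell genes -0.36. When each library was left out in turn these medians ranged over -0.10 to 0.063, -0.17 to 0.25, -0.060 to 0.10 and -0.49 to -0.11, the last reaching -0.11 without Ctrl 3.

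**Figure D3:**
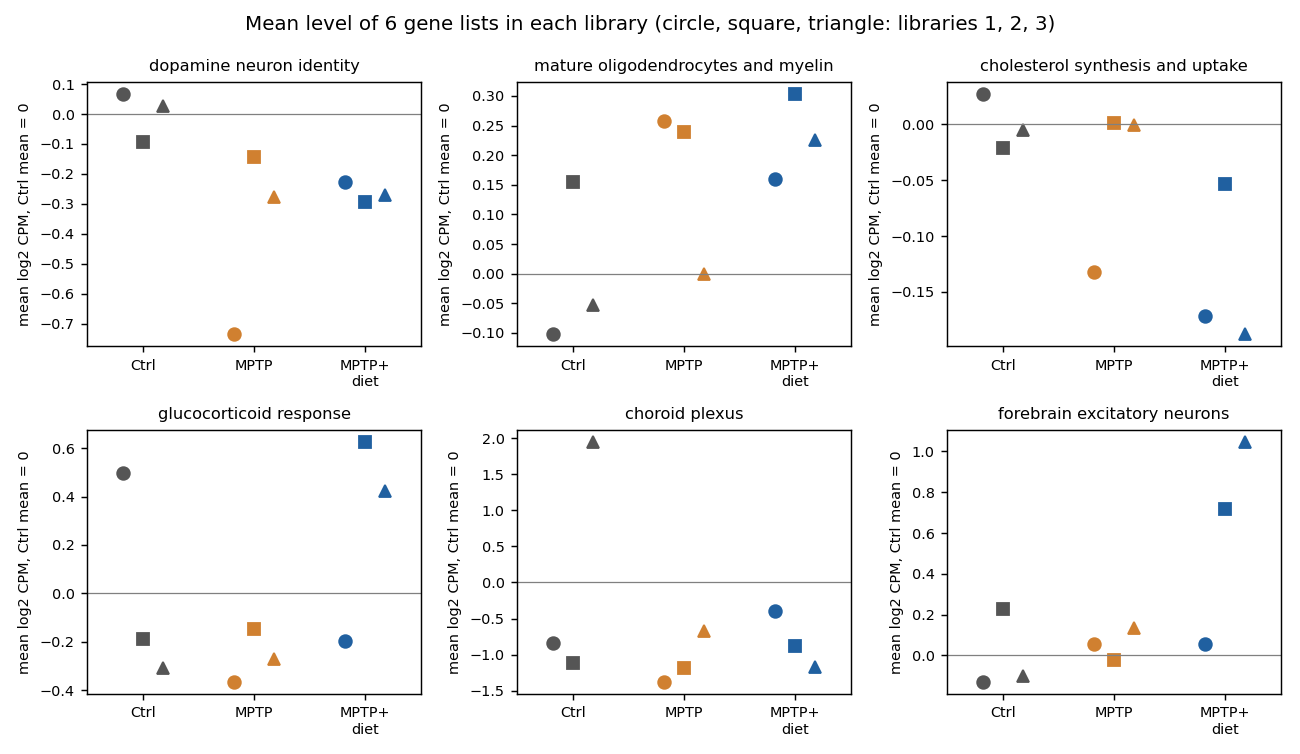
Mean log2 CPM of 6 gene lists in each library relative to the Ctrl mean, by group, with circle, square and triangle for libraries 1, 2 and 3 and a separate vertical scale in each panel. Dopamine neuron identity is below the Ctrl mean in all 3 MPTP plus diet libraries, choroid plexus is high in Ctrl 3, and forebrain excitatory neuron markers are high in MPTP plus diet libraries 2 and 3. Glucocorticoid response genes are high in MPTP plus diet libraries 2 and 3 (0.62 and 0.42) and in Ctrl 1 (0.50).

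Several stress genes that were lowest with MPTP were nearer to Ctrl with MPTP plus diet, although no difference between the treated groups passed the adjusted threshold. Dnajb1 and Hspa1b were the 2 genes called for MPTP against Ctrl. Their differences from MPTP use the same low MPTP libraries, so a level nearer to Ctrl with MPTP plus diet is no separate result. Dnajb1, the co-chaperone that switches off heat shock factor 1, was at 84.4, 91.1 and 89.8 CPM in Ctrl, 58.4, 61.7 and 60.7 CPM with MPTP and 83.4, 75.1 and 70.4 CPM with MPTP plus diet. It fell with MPTP (log2 fold change -0.55, adjusted p = 0.0141), and with MPTP plus diet it gave -0.21 (adjusted p = 0.74, SE 0.065) against Ctrl and 0.34 against MPTP (unadjusted p = 0.000152, adjusted p = 0.469). The MPTP plus diet libraries of Dnajb1 lay between the other groups without overlap. Hspa1b, the stress-inducible HSP70, was at 18.8, 16.2 and 22.5 CPM in Ctrl, 7.33, 7.94 and 9.22 CPM with MPTP and 14.3, 9.51 and 13.4 CPM with MPTP plus diet, likewise in between. Hspa1b fell with MPTP (log2 fold change -1.23, adjusted p = 0.0417) and gave -0.63 (adjusted p = 0.74, SE 0.16) with MPTP plus diet against Ctrl, and 0.60 against MPTP (unadjusted p = 0.00322, adjusted p = 0.587). Its near-identical copy Hspa1a, with which it may exchange reads, gave -0.51.

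Over the 20 heat-shock chaperones tested, 17 were below Ctrl with MPTP plus diet (50.8% of all genes), with a median of -0.074 and 5 without overlap (6.67% of all genes), and all 20 were below with MPTP, with a median of -0.11. The Hspa1b promoter is shown since Hspa1b had the smallest p of the list. It covers the 250 bases before the annotated start, chr17:34959239-34959488 on the minus strand of GRCm38.p6, from RefSeq, and capitals mark the match to GAANNTTC, the minimal inverted repeat of the heat shock element, whose sequence reads alike on both strands.
Hspa1b: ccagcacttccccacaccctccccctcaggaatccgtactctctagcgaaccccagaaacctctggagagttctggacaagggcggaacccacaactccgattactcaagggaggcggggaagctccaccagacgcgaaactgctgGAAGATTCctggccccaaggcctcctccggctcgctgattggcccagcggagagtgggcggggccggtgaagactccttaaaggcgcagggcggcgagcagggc

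The motif was found in 7 of 16 heat-shock promoters on hand (43.8%), against 5.99% of the 10760 tested genes with a window. Those of Hspa1a, Hspb1, Hspd1, Hspe1, Dnaja1 and Fkbp4 were the others that held it. Hspa5, the chaperone of the endoplasmic reticulum, was at 340.4, 355 and 359.6 CPM in Ctrl, 264, 268 and 279 CPM with MPTP and 347, 287 and 301 CPM with MPTP plus diet (-0.17, adjusted p = 0.74). Library 1 of the MPTP plus diet group lay inside the Ctrl range and the other two below it. Of 21 genes of the endoplasmic reticulum stress list 16 were below Ctrl (50.8% of all genes), the median being -0.053 (-0.10 for MPTP against Ctrl). This median ranged over -0.076 to -0.0059 when each library was left out. The mean log2 level of the list overlapped, at -0.014, 0.026 and -0.012 in Ctrl and 0.030, -0.13 and -0.042 with MPTP plus diet. The 16 genes of the integrated stress response had a median of 0.010 (-0.017 to 0.037 when each library was left out).

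Immediate early genes, which neurons switch on within minutes of firing, were mixed. Fos was at 16.4, 24.1 and 17.1 CPM in Ctrl, 7.93, 8.91 and 9.98 CPM with MPTP and 10.7, 18.4 and 16.7 CPM with MPTP plus diet (-0.33, adjusted p = 0.819), and its difference from MPTP was 0.77 (unadjusted p = 0.00447, adjusted p = 0.587). Egr3, a zinc finger factor, gave 0.80 and Egr1, of the same family, -0.22, with unadjusted p-values of 0.0113 and 0.0493. The median over the 24 tested was -0.048 against Ctrl, beside -0.29 for MPTP against Ctrl. Without MPTP plus diet library 1 it was 0.023, with 14 above and 10 below, and the range over libraries left out in turn was -0.11 to 0.023. Of 18 glucocorticoid-responsive genes, 16 were above Ctrl with MPTP plus diet (median 0.21), where 16 were below Ctrl with MPTP (median -0.30). This was uneven across libraries, with a mean log2 level of 0.50, -0.19 and -0.31 in Ctrl and -0.20, 0.62 and 0.42 with MPTP plus diet. Library 1 of Ctrl and library 1 of MPTP plus diet thus went against the others of their group. The MPTP libraries, at -0.37, -0.15 and -0.27, lay near Ctrl libraries 2 and 3. Without MPTP plus diet library 1 the median was 0.42, and without Ctrl 3 it was 0.13. Of its members, Mt1, a metallothionein, gave 0.20 without overlap, and Dusp1, a phosphatase of MAP kinases, 0.28, with unadjusted p-values of 0.0329 and 0.0375.

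Genes for the use of ketone bodies differed little from Ctrl. Of 12 tested, 5 were above and 7 below, with a median of -0.028 beside -0.0021 over all genes. Only 1 member, Aacs, given above with the lipid genes, had an unadjusted p under 0.05, on the low side (3.53% of all genes). Oxct1, the transferase that commits acetoacetate to oxidation, was at 272, 261 and 244 CPM in Ctrl, 298, 266 and 247 CPM with MPTP and 294, 279 and 279 CPM with MPTP plus diet (log2 fold change 0.13, adjusted p = 0.753, SE 0.065), without overlap with Ctrl. Bdh1, the β-hydroxybutyrate dehydrogenase, gave -0.069 (SE 0.077), and Slc16a1, the monocarboxylate transporter of endothelium and glia, 0.079 (SE 0.064), each with overlapping libraries. Fatty acid oxidation and PPAR target genes, 32 tested, had a median of 0.020 with 20 above and 12 below. Cpt1a, the carnitine transferase that admits long-chain fatty acids to mitochondria, was at -0.049 (SE 0.069) and Pdk4, the kinase that shuts pyruvate out of the citric acid cycle, at 0.30 (adjusted p = 0.849). Ppargc1a, a coactivator of mitochondrial genes, gave 0.22 without overlap (unadjusted p = 0.0215). Ppara, the receptor for fatty acids, gave 0.69 (unadjusted p = 0.0311), but its implied transcript length differed 1.67-fold between libraries.

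Most respiratory chain genes lay slightly above Ctrl with MPTP plus diet, but the mean levels of both lists overlapped between these groups. Of 37 complex I genes 30 were above (49.2% of all genes), with a median of 0.033 and 5 without overlap (6.19% of all genes). For MPTP against Ctrl, 29 of 37 were below, with a median of -0.042. Relative to the Ctrl mean, the mean log2 level of complex I was -0.026, 0.062 and -0.036 in the Ctrl libraries. It was 0.054, -0.039 and -0.13 with MPTP, and 0.081, 0.059 and 0.011 with MPTP plus diet. Without MPTP plus diet library 1, 25 of the complex I genes were above Ctrl, and 23 without Ctrl 3 as well. Of 38 genes of complexes II to V 32 were above, with a median of 0.049 (-0.021 for MPTP against Ctrl), and 27 without MPTP plus diet library 1. The mean log2 level of complexes II to V was -0.029, 0.056 and -0.027 in Ctrl and 0.082, 0.088 and 0.024 with MPTP plus diet. The subunits of smallest p were Ndufa13 and Ndufc1 of complex I, at 0.17 and 0.24, and Cox7c of cytochrome c oxidase, at 0.19, with unadjusted p-values of 0.00887, 0.0226 and 0.0335. Citric acid cycle genes had 16 of 20 above with a median of 0.043, and glycolytic genes 9 of 20 above with a median of -0.016, Ldha being the only one of them with an unadjusted p under 0.05. Sod2, the mitochondrial superoxide dismutase, gave 0.17 and Gsr, which regenerates reduced glutathione, 0.17, both without overlap (unadjusted p = 0.00567 and 0.0445), within an NRF2 list whose 18 genes had a median of 0.031.

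**Figure D4:**
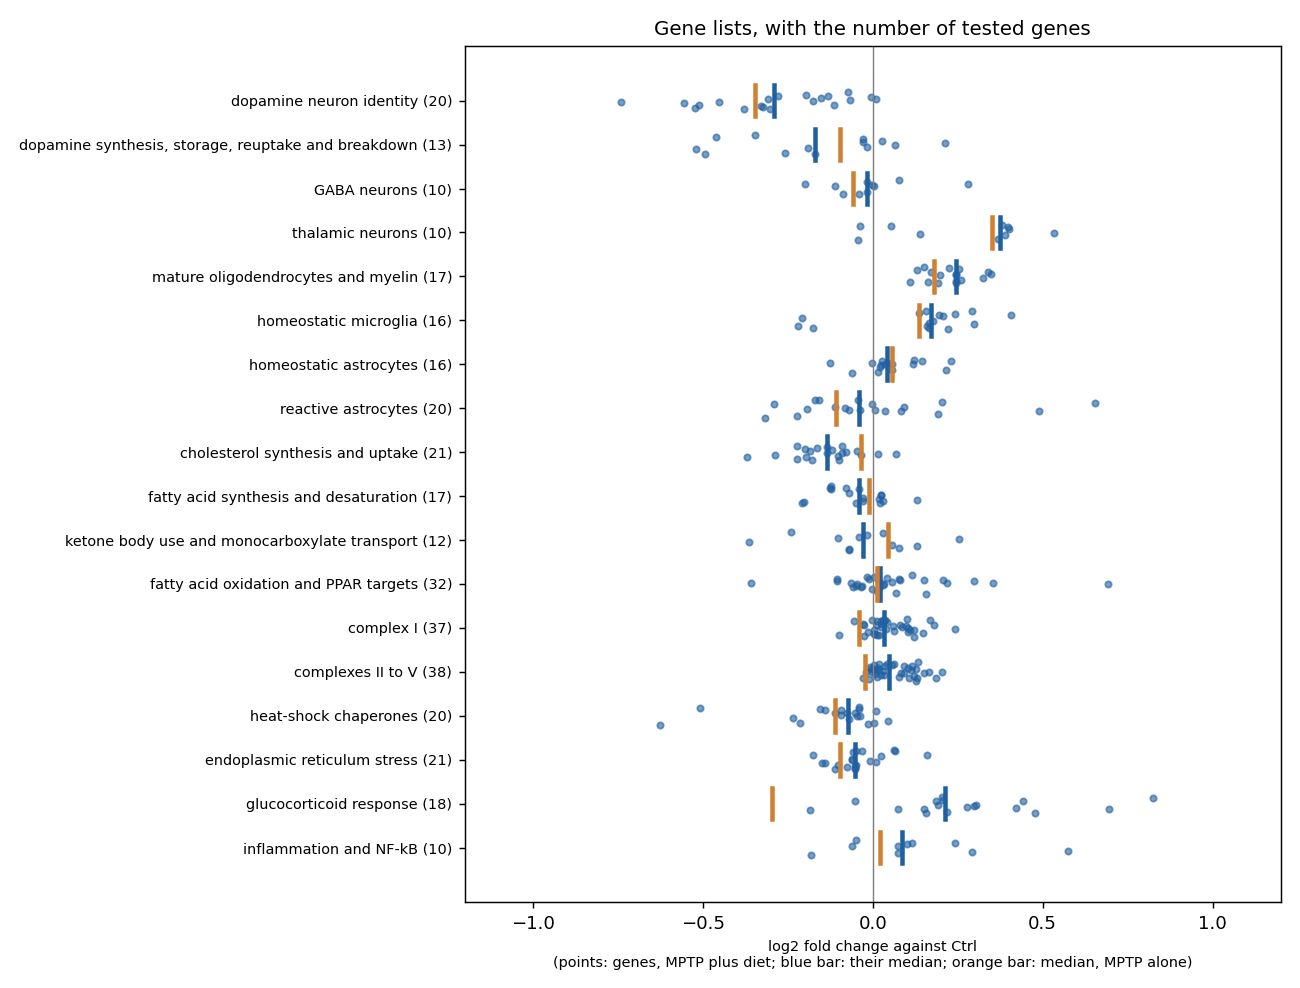
Log2 fold changes of MPTP plus diet against Ctrl for the tested genes of 18 lists on a linear horizontal axis, 1 point per gene, with the list median as a blue bar and the median of MPTP against the same Ctrl libraries as an orange bar. Myelin and microglia lists lie to the right of 0 and dopamine neuron identity and cholesterol lists to the left, while the blue and orange bars are farthest apart for the glucocorticoid list.

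For the remaining lists the medians were 0.0022 over 31 proteasome genes, 0.0029 over 25 lysosome genes, -0.0061 over 20 aminoacyl-tRNA synthetases and -0.044 over 18 clock genes. The 16 inherited parkinsonism genes had a median of -0.016, with 7 above and 9 below. The 17 neurotrophic factor and receptor genes had one of -0.053, with 12 below. Of 8 genes of osmolyte transport and tonicity, 4 were above Ctrl and 4 below. Their median was 0.056, with a range of -0.086 to 0.11 when each library was left out. Slc5a3, which imports myo-inositol and whose gene overlaps Mrps6, gave -0.23 and Slc6a6, the taurine transporter, -0.10 (unadjusted p = 0.00312 and 0.0545). Both were without overlap with Ctrl on the low side (6.67% of all genes).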

How the data were processed

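RNA was measured in 9 libraries of mouse substantia nigra pars compacta, 3 per group, made with the NEBNext Ultra kit per the labels' protocols. The authors deposited 1 table that gives each gene in each library a raw count of reads and an FPKM, per the file headers. The build is GRCm38 (mm10), per the submitters' processing notes. No aligner, counting tool or strand setting was stated in the sources used here, so overlapping and antisense genes cannot be separated and near-identical copies may exchange reads.

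The 10 lines that named no gene were left out, and 27 symbols that had turned into dates were replaced through their identifiers. Of 22036 Ensembl identifiers, 22022 matched GENCODE M21, which gave coordinates. Counts of the 14949 rows with a mean FPKM of at least 0.5 (1139 of them unannotated) were fitted in edgeR 4.0.16 (R 4.3.3) with TMM scaling, robust quasi-likelihood tests, a group-only design over all 9 libraries and Benjamini-Hochberg adjustment over all rows. CPM used TMM-scaled totals. Common biological variation was 0.134. Alternatives were RLE scaling, no filter, DESeq2 1.42.0, limma 3.58.1 on log2(FPKM + 0.1) and log2(FPKM + 1), 6 libraries only, adjustment over Ensembl genes, a replicate block, no robust moderation and each library left out, and, chosen after seeing the data, Ctrl 3 and MPTP plus diet library 1 left out together. The scripts were tested on simulated data.

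Named genes were the 15 of smallest p in each direction with a mean FPKM of at least 1, up to 4 of smallest p per list, and a set list that held Th, Slc6a3, Gfap and ketone and stress genes. Sqle, Hmgcs1, Kcnh3, Iqschfp, Tph1, Crx and Mbp were named after their values were seen. The members and the 42 gene lists were chosen with earlier results of these data known. The values of some genes that meet the rule are not reported here.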

Additional observations from a re-analysis of the deposited data

How the results depend on the processing

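Over the 14949 rows, the number of genes called for MPTP plus diet against Ctrl was 0 by edgeR, and also 0 with RLE scaling (smallest adjusted p 0.0852), with limma, with adjustment over Ensembl genes alone and without robust moderation. It was 1, lower (Vegfa), with no filter on low values, 14 with DESeq2 (8 higher and 6 lower, with 3193 adjusted p-values not given), and 4 with only the 6 libraries compared (2 higher and 2 lower). Without Ctrl 3 and MPTP plus diet library 1 together it was 1, lower, an unannotated row. Leaving out 1 library in turn gave 0 to 4 calls, 0 to 2 of them higher and 0 to 2 lower. Of the Ensembl genes, DESeq2 called Sumo2, Olfm1, Rnf141, Rnf26, Gpm6b, Slc17a7 and Trak2 higher and Vegfa, Mrps34, Utp14b, Fasn and Atg9b among those lower. With 6 libraries, beside 1 unannotated row, Sumo2 was called higher and Mrps34 and Vegfa lower. Without MPTP library 3 the same 3 genes were called, without MPTP library 2 only Mrps34, and without MPTP plus diet library 1 only Iqschfp, a readthrough of Iqcj and Schip1. The cause was not tested.

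With the replicate number as a block, 5 genes were called, 2 higher (Gfap, adjusted p = 0.00952, and Rnf26) and 3 lower (Mrps34, Vegfa and Slc6a3). Same-numbered Ctrl and MPTP plus diet libraries correlated at 0.078, -0.0073 and 0.0079 in their deviations from the group means, under the minimum of 0.1. A correlation over all genes cannot show whether same-numbered libraries shared a litter, batch or day, and the labels do not say. Same-numbered MPTP and MPTP plus diet libraries correlated at 0.18, 0.11 and 0.11, above the minimum of 0.1, and the block left 0 calls between them. Ctrl 2 and MPTP 1, which differ in number, correlated at 0.19. The p-values given above for MPTP plus diet against MPTP come from the fit without a block.

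Among named genes the direction of the log2 fold change reversed for 4. Aif1 ranged from -0.38 to 0.13 when 1 library was left out. Ttr ranged from -5.83 to 2.26, the latter without Ctrl 3, and was 0.14 without Ctrl 3 and MPTP plus diet library 1. Tph2 was -0.068 and -0.041 by limma with pseudocounts 0.1 and 1, -0.086 with the replicate block, and -0.30 to 0.69 when 1 library was left out. Ptgds ranged from -0.22 to 0.50 when 1 library was left out. Of the 42 lists, the medians of 20 changed sign when 1 library was left out. Among these were the GABA, serotonin, hypoxia, reactive astrocyte, immediate early, glycolysis, clock, proteasome, lysosome, aminoacyl-tRNA synthetase and inherited parkinsonism lists. The dopamine neuron identity (-0.32 to -0.22), myelin (0.19 to 0.30), microglia (0.13 to 0.22) and cholesterol (-0.17 to -0.10) medians kept theirs. Of the 23 inflammation genes, 13 were below the FPKM minimum.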
